A study of Mus musculus with 82 samples.

Results

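Complement genes were followed through 82 mouse sciatic nerve libraries. The set holds 9 genes out of 14872 gene symbols found in all 8 deposited tables. They were chosen by name among the known components, regulators and receptors of the cascade, with earlier results of these data known. All 9 were found in every table, passed the filter on low counts in every comparison and had at least 17 estimated counts in every library. C1qa, C1qb and C1qc encode the chains of C1q, the recognition molecule that starts the classical pathway. C4b encodes complement component 4, the next link of that pathway, and C3 encodes the component on which all pathways of the cascade converge. C3ar1 and C5ar1 encode the G protein-coupled receptors for the small fragments released from C3 and C5. Serping1 encodes the C1 inhibitor, a secreted protease inhibitor that stops the classical pathway at its first enzymes, and Cd55 encodes decay-accelerating factor, a membrane-anchored regulator that takes apart the enzymes that cleave C3.

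Complement is a cascade of plasma and tissue proteins that marks targets for uptake, attracts phagocytes and can open membranes. In tissues C1q is made largely by macrophages, the fragment receptors sit mainly on myeloid cells, and C3, C4b and Serping1 are also made by fibroblasts and other stromal cells. In a cut or crushed nerve, complement is known to deposit on degenerating myelin and to help recruit the macrophages that clear it.

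The series measured RNA of whole sciatic nerves, which hold Schwann cells, axons, fibroblasts, macrophages, vessels and the perineurial sheath, in 22 groups. In 1 table Fig4 -/- nerves were set against Fig4 +/+ nerves at postnatal day 12 (P12), and in another the same genotypes were set against each other at P4, with 3 libraries a group. Fig4 is a lipid phosphatase of late endosomes whose loss causes neuropathy in mice. A table at P21 held 5 libraries labelled Mitf and 5 labelled DhhCre, and a table at P12 held 3 labelled Mitf and 3 labelled Egr2Cre. Dhh is switched on in Schwann cell precursors and Egr2 in myelinating Schwann cells, and lines so named place Cre recombinase under their control. A further table held 4 nerves taken 3 days post injury and 4 uninjured nerves, all labelled Mitf and without an age. A time course sampled Mutant and wild type nerves at 3, 7 and 14 days after injury, 3 libraries to each of its 6 groups, and gave no age. The labels of another table, without age or injury, were Egr2Cre Mitf and Mitf, with 3 libraries each. The last table held 5 Mitf-Ndrg1, 5 Ndrg1, 6 Mitf and 6 control libraries, also without an age. Mitf is a transcription factor of pigment cells and lysosomal genes, and Ndrg1 is a cytoplasmic protein that Schwann cells need to keep their myelin. No label states in which of these groups the Mitf gene itself was altered, what the Mutant allele is, or what drives Cre in the Ndrg1 table, so every direction below goes by label.

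The libraries held between 15440000 and 34530000 estimated counts each, and the 9 genes together took 0.0336% to 0.336% of them. Levels are given as CPM, counts scaled to a common library size within each table. Fig4 stood at 4.43 ± 1.42 CPM in Fig4 -/- nerves at P12 and 22.7 ± 4.06 CPM in Fig4 +/+ nerves, and at 4.46 ± 0.350 CPM in Fig4 -/- nerves at P4 and 30.3 ± 3.04 CPM in Fig4 +/+ nerves (SD, n = 3 each). Ndrg1 stood at 177 ± 12.3 CPM (SD, n = 5) in Mitf-Ndrg1 and 181 ± 11.4 CPM (SD, n = 5) in Ndrg1 libraries and at 1970 ± 95.5 CPM in controls (SD, n = 6). Mitf itself stood at 19.7 ± 1.69 CPM in libraries labelled Mitf at P21 and at 5.74 ± 1.05 CPM in DhhCre libraries (SD, n = 5 each). In the Ndrg1 table the order was the other way, without overlap: Mitf stood at 12.2 ± 1.66 CPM in libraries labelled Mitf and at 18 ± 2.19 CPM in controls (SD, n = 6 each), so the label Mitf does not go with 1 direction of its RNA. Counts summed over a whole gene need not reveal the loss of some of its exons. Summed over 8 skeletal muscle genes, 15 libraries reached 10000 CPM and are called muscle-rich below, among them all 6 of the table labelled Egr2Cre Mitf and Mitf and 5 of the time course at 7 and 14 days. Separate animals are not stated for the replicates, so each p-value reflects how far these libraries spread, part of which may be technical. In whole nerve, fewer cells of a type and less RNA per cell cannot be told apart.

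The genes lie on mm10 (GENCODE vM21) at chr4:136895917-136898803 (C1qa), chr4:136880129-136886187 (C1qb), chr4:136889804-136893065 (C1qc), chr17:34728380-34743882 (C4b), chr17:57203970-57228136 (C3), chr6:122847138-122856161 (C3ar1), chr7:16246743-16259540 (C5ar1), chr2:84765387-84775444 (Serping1) and chr1:130439027-130462744 (Cd55), each on the minus strand, and counts were given per gene. C4b has a near-identical copy, C4a, to which the authors' counting gave 1.14% of the reads of the pair, so the C4b values are uncertain by any split between them. The Cd55 copy Cd55b had 0 to 2 counts per library in the 7 tables that list it. The C1q genes stand side by side within 18675 bp of chromosome 4, in the order C1qb, C1qc, C1qa. Promoter sequences from RefSeq (GRCm38.p6) were found for 6 of the 9 genes, namely C1qb, C1qc, C3, C3ar1, C5ar1 and Cd55, and not for C1qa, C4b and Serping1. The 250 bases before the start of C1qb (chr4:136886201-136886450) and C1qc (chr4:136892915-136893164), both on the minus strand, are shown because the levels of these neighbouring genes followed each other more closely than those of any other pair of members but C1qa and C1qc. Capitals mark the core GAGGAA bound by PU.1, the main transcription factor of macrophages, and the E-box CATGTG bound by MITF, each on either strand (TTCCTC and CACATG are their other strands).
C1qb: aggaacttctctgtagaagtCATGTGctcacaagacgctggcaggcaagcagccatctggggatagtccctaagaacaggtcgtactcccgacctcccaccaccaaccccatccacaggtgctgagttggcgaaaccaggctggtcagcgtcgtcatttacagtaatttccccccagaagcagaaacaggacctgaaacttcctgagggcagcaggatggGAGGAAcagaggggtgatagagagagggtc
C1qc: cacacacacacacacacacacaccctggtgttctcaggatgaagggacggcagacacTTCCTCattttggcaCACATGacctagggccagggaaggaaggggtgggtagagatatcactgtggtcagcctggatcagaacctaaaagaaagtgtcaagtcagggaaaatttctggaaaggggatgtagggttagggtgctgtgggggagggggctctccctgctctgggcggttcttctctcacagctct
In C1qb the PU.1 core starts 30 bases and the E-box 230 bases before the start site, and in C1qc they start 193 and 178 bases before it. Over the 300 bases from 250 before to 50 after the start, GAGGAA was found on either strand in 2 of the 6 promoters and in 28.3% of all 32851 RefSeq promoters. An E-box CACGTG or CATGTG was found in the same 2 of 6, against 20.4% of all promoters. The letters TTGCNNAA, a site of C/EBP factors, were in 1 of 6, the C3 promoter 45 bases before its start, against 10.8% of all promoters, and the STAT letters TTCNNNGAA were in 0 of 6, against 8.3%. Such matches describe letters only.

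Across the 22 groups the members ran over ranges of very different width. C3 spanned 225-fold, with 372 ± 80.1 CPM (SD, n = 4) at the top, in uninjured nerves labelled Mitf, and 1.65 ± 0.357 CPM (SD, n = 3) at the bottom, in Egr2Cre nerves at P12. C4b spanned 94.6-fold, with 385 ± 49.3 CPM in the same uninjured nerves (SD, n = 4) and 4.07 ± 2.98 CPM in Fig4 +/+ nerves at P4 (SD, n = 3). C3 stayed at or under 16.4 CPM in each of the 18 libraries taken at P4 and P12 and C4b at or under 57.2 CPM, while all 64 others held at least 13.2 CPM of C3 and 101 CPM of C4b. The chains of C1q ran over 17-fold (C1qa), 11.4-fold (C1qb) and 13-fold (C1qc), lowest in Fig4 +/+ nerves at P12 and highest 3 or 7 days post injury in the time course. C3ar1 (9.53-fold) and C5ar1 (10.7-fold) were highest in Mutant nerves 3 days post injury, at 114 ± 53.5 and 63.6 ± 24.4 CPM (SD, n = 3). Serping1 spanned 9.2-fold and peaked at 1277 ± 182 CPM in the Egr2Cre Mitf libraries (SD, n = 3). Cd55 spanned 7.86-fold in another order, highest in controls of the Ndrg1 table at 145 ± 10.3 CPM (SD, n = 6) and lowest in Mutant nerves 3 days post injury at 18.5 ± 2.33 CPM (SD, n = 3). When the groups were put in order of their means, the ranges of neighbouring groups overlapped in 17 to 20 of the 21 neighbouring pairs for each gene. The steps without overlap included Mitf at P21 above Fig4 -/- at P12 for C3, Fig4 +/+ at P12 above Mitf at P12 for C4b, and wild type at 3 days above wild type at 7 days for C5ar1. Tables were scaled separately, so levels set across tables were not tested.

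**Figure D1:**
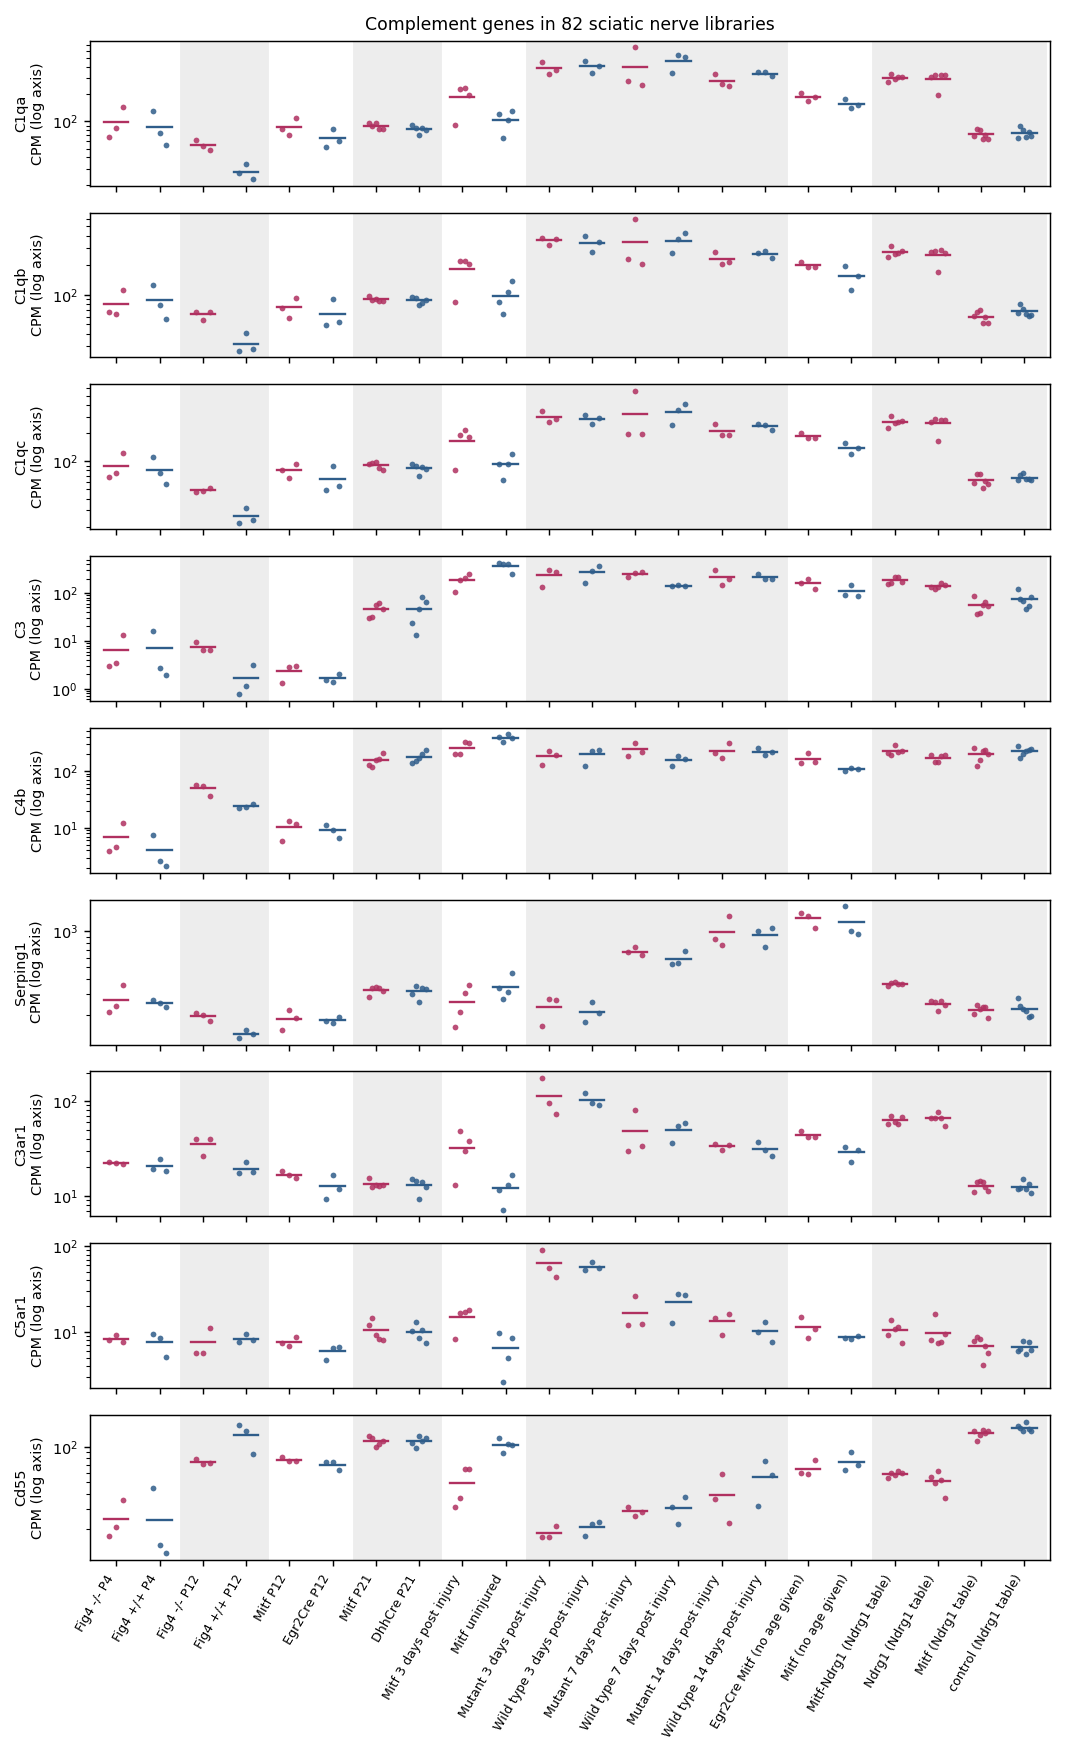
Level of each complement gene in CPM (log axis) in every library, with 1 dot per library and a bar at the group mean; shading separates the 8 tables, and within a table the blue group is the wild type, control or second-named group. C4b sits lower in all libraries of P4 and P12 than in any other, C3 does so but for an overlap between 13.2 and 16.4 CPM, and within the time course Cd55 has its lowest group means at 3 days.

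Divided by transcript length, the chains of C1q had like levels in every library. The ratio of C1qb to C1qa per length ran from 0.657 to 1.34 with a median of 0.865, and that of C1qc to C1qa from 0.554 to 0.935 with a median of 0.762 (82 libraries). The ratio of C3 to C4b per length ran from 0.0354 to 2.28. Serping1 had the highest level per length of the 9 in control libraries of the Ndrg1 table (126 ± 17.7 CPM per kb, SD, n = 6), and C1qa had it in Ndrg1 libraries (286 ± 55.7 CPM per kb, SD, n = 5).

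**Figure D2:**
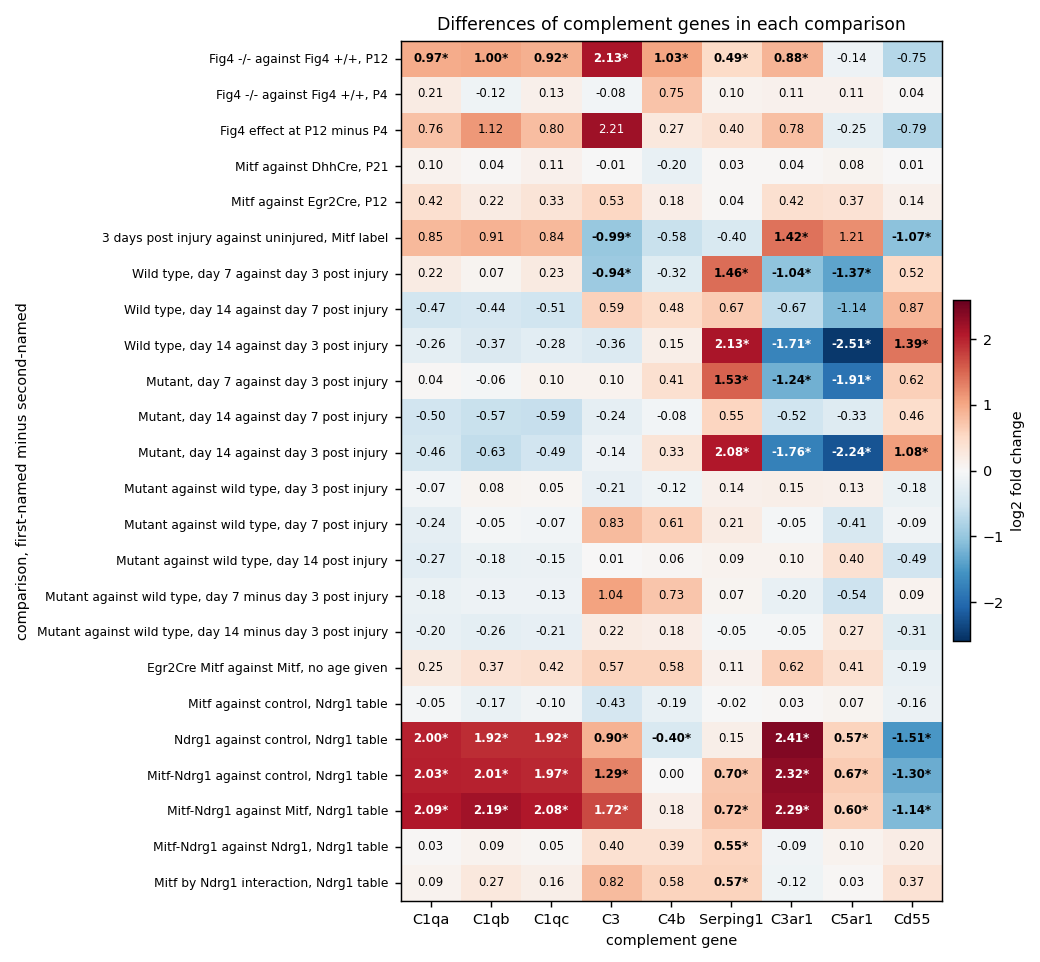
Log2 fold change of each complement gene in each of 24 comparisons, first-named minus second-named group; values in bold with a star passed edgeR's test at an adjusted p under 0.05. The starred values lie in Fig4 at P12, in injury and its time course, and in the comparisons that involve Ndrg1.

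At P12, Fig4 -/- nerves held more C1q, C3, C4b, C3ar1 and Serping1 RNA than Fig4 +/+ nerves. C1qa had 62.2, 52.8 and 48.01 CPM in Fig4 -/- nerves, against 26.6, 33.7 and 22.98 CPM in Fig4 +/+ nerves. C1qb had 67.6, 55.2 and 67.1 CPM in Fig4 -/- nerves, against 26.8, 40.5 and 27.6 CPM in Fig4 +/+ nerves. C1qc had 46.4, 48.2 and 51.9 CPM in Fig4 -/- nerves, against 22.1, 31.5 and 23.6 CPM in Fig4 +/+ nerves. The genotypes did not overlap for any chain, and the means were 1.9-fold to 2-fold apart (log2 fold change 0.97, SE 0.179, edgeR adjusted p = 0.0136 for C1qa). The log2 fold change was 1.00 (SE 0.184, adjusted p = 0.0136) for C1qb and 0.92 (SE 0.171, adjusted p = 0.0137) for C1qc. C3 had 9.39, 6.603 and 6.57 CPM in Fig4 -/- nerves, against 0.762, 1.15 and 3.21 CPM in Fig4 +/+ nerves (log2 fold change 2.13, SE 0.506, edgeR adjusted p = 0.0447). C4b had 57.2, 55.2 and 35.6 CPM in Fig4 -/- nerves, against 22.6, 23.7 and 26.2 CPM in Fig4 +/+ nerves (log2 fold change 1.03, SE 0.193, edgeR adjusted p = 0.0149). Every Fig4 -/- library lay above every Fig4 +/+ library for C3 and for C4b, while C3 was scarce in both genotypes. C3ar1 had 40.2, 26.5 and 40.01 CPM in Fig4 -/- nerves, against 17.6, 22.6 and 17.8 CPM in Fig4 +/+ nerves (log2 fold change 0.88, SE 0.202, edgeR adjusted p = 0.0402). Serping1 had 207, 199 and 179 CPM in Fig4 -/- nerves, against 128, 149.8 and 138 CPM in Fig4 +/+ nerves (log2 fold change 0.49, SE 0.118, edgeR adjusted p = 0.0483). Neither gene overlapped between the genotypes. The receptor C5ar1 averaged 7.57 ± 3.202 CPM in Fig4 -/- and 8.35 ± 0.992 CPM in Fig4 +/+ nerves (SD, n = 3 each), and the groups overlapped (log2 fold change -0.14, SE 0.318, edgeR adjusted p = 0.869). Cd55 stood apart, with 78.9, 72.1 and 72.9 CPM in Fig4 -/- nerves, against 152, 137 and 86.3 CPM in Fig4 +/+ nerves, all lower without overlap but just short of the threshold (log2 fold change -0.75, SE 0.184, edgeR adjusted p = 0.0543). It was called lower by DESeq2 (adjusted p = 0.00279) and without Fig4 +/+ replicate 3 (-0.96, adjusted p = 0.00355).

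Thus 7 of 9 members rose and 0 fell, against a background of 1.87% of all 14338 genes tested that were called higher and 3.03% called in either direction. The members' median log2 fold change was 0.92, against 0 over all genes tested. Of 48 other complement genes, 30 were tested and 0 passed. Of 15 macrophage markers, all of them detected, 7 rose and 0 fell, and their summed level ran from 1010 to 1330 CPM in Fig4 -/- and from 596 to 700 CPM in Fig4 +/+ nerves. The part of this in the complement result was not tested. The count of 7 rested on single libraries: without Fig4 +/+ replicate 1 no member passed (0 of 9), and it was 6 at most with any 1 library left out.

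At P4 no member passed between the genotypes. C1qa averaged 99.7 ± 40.98 CPM in Fig4 -/- and 86.2 ± 39.1 CPM in Fig4 +/+ nerves, and Serping1 averaged 268 ± 76.9 CPM in Fig4 -/- and 249.7 ± 14.9 CPM in Fig4 +/+ nerves (SD, n = 3 each). C3 averaged 6.61 ± 5.85 CPM in Fig4 -/- and 7.01 ± 8.11 CPM in Fig4 +/+ nerves. The spread was set by 1 library of each genotype. Fig4 -/- replicate 3 and Fig4 +/+ replicate 1 held 13.4 and 16.4 CPM of C3, against 1.90 to 3.46 CPM in the other 4 libraries, and 35.5 and 44.9 CPM of Cd55, against 12.5 to 20.8 CPM. The same 2 libraries were also highest for C1qa (146 and 130 CPM), C4b and Serping1. They had the highest summed skeletal muscle markers of the table, 9910 CPM in Fig4 -/- replicate 3 and 12100 CPM in Fig4 +/+ replicate 1, against 129 to 1720 CPM in the other 4. Their summed adipocyte markers were 960 and 2580 CPM, against 56.1 to 152 CPM in the other 4, and the part of either in these levels was not tested. edgeR called 0 of 9 members at P4, 0 passed at an unadjusted p under 0.05, DESeq2 called 0, and 1 of 14888 genes was called in all (0.00672%). The difference between the ages, tested as the Fig4 effect at P12 minus that at P4, was called for 0 of 9 members by edgeR and by DESeq2, against 0.167% of genes by edgeR. Without adjustment p was under 0.05 for 2 members, C1qb at 1.12 (SE 0.413, adjusted p = 0.526) and C3ar1 at 0.78 (SE 0.269, adjusted p = 0.478). Age and table cannot be told apart in it.

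In nerves labelled Mitf 3 days post injury, the receptor C3ar1 rose, and C3 and the regulator Cd55 fell, relative to uninjured nerves labelled Mitf. C3ar1 had 12.9, 48.4, 29.4 and 37.5 CPM in injured nerves, against 11.4, 7.13, 12.96 and 16.4 CPM in uninjured nerves (log2 fold change 1.42, SE 0.387, edgeR adjusted p = 0.0293). Injured replicate 1 lay within the uninjured range and the other 3 lay above it, and the call was lost with no filter on low counts (1.42, adjusted p = 0.0654). C3 had 105, 184, 209 and 250 CPM in injured nerves, against 429.6, 399.7, 404 and 253 CPM in uninjured nerves (log2 fold change -0.99, SE 0.262, edgeR adjusted p = 0.024). Cd55 had 31.03, 36.96, 65.1 and 65.01 CPM in injured nerves, against 119, 89.2, 105 and 103 CPM in uninjured nerves (log2 fold change -1.07, SE 0.241, edgeR adjusted p = 0.0137). For C3 and Cd55 every injured library lay under every uninjured one, and the C3 ranges nearly touched. The chains of C1q were higher in 3 of 4 injured libraries, with 90.8, 231, 235 and 196 CPM of C1qa in injured nerves, against 119, 66.3, 103 and 129 CPM in uninjured nerves. None of the chains passed the test (log2 fold change 0.85, SE 0.306, edgeR adjusted p = 0.0754 for C1qa), with log2 fold changes of 0.91 (SE 0.329, adjusted p = 0.0758) for C1qb and 0.84 (SE 0.296, adjusted p = 0.0697) for C1qc. C5ar1 had 8.299, 16.8, 17.2 and 18.1 CPM in injured nerves, against 9.88, 2.64, 4.93 and 8.52 CPM in uninjured nerves (log2 fold change 1.21, SE 0.406, edgeR adjusted p = 0.0566). C4b averaged 258 ± 68.7 CPM in injured and 385 ± 49.3 CPM in uninjured nerves (log2 fold change -0.58, SE 0.199, edgeR adjusted p = 0.0609), and Serping1 257 ± 88.3 CPM in injured and 339.8 ± 74.97 CPM in uninjured nerves (SD, n = 4 each; log2 fold change -0.40, SE 0.254, edgeR adjusted p = 0.292).

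In all 3 of 9 members passed, 1 higher and 2 lower, against 22.1% of 15245 genes, a share near the background. DESeq2 called 8 of 9, all but Serping1, and without injured replicate 1 edgeR called 7, the chains of C1q and C5ar1 among them. Without uninjured replicate 1, 2 or 3, or without injured replicate 2, Cd55 was the 1 member left. Of 32 other complement genes tested, 3 rose and 3 fell. Those that rose were Cd93, a membrane protein of endothelium and myeloid cells, at 0.97 (SE 0.213, adjusted p = 0.0121), Itgam, a chain of complement receptor 3, at 1.60 (SE 0.479, adjusted p = 0.0437), and C1qbp, a mitochondrial protein that binds C1q, at 0.60 (SE 0.17, adjusted p = 0.0307). C2, the partner of C4b in the classical pathway, fell, at -1.21 (SE 0.344, adjusted p = 0.0326), and so did the regulator Csmd1 at -1.19 (SE 0.2, adjusted p = 0.0045) and the terminal component C7 at -2.48 (SE 0.653, adjusted p = 0.0237). Of 15 macrophage markers 4 rose and 0 fell, and their summed level ran from 1040 to 2460 CPM in injured and from 519 to 1260 CPM in uninjured nerves. Of 8 neutrophil markers 4 could be tested and 2 rose, with sums of 7.61 to 25.1 CPM in injured and 1.48 to 4.4 CPM in uninjured nerves, and 1 of the 8 was at 0 in every library. Injured replicate 1 had the lowest macrophage sum of its group (1040 CPM). Of 10 myelinating Schwann cell markers 4 fell, with sums of 38100 to 93100 CPM in injured and 105000 to 130000 CPM in uninjured nerves, without overlap. Of 7 perineurial markers 2 fell, with sums of 259 to 535 CPM in injured and 706 to 928 CPM in uninjured nerves, and of 10 fibroblast markers 1 fell, with sums of 2810 to 6530 CPM in injured and 5330 to 9210 CPM in uninjured nerves. No marker of these 3 lists or of the macrophage list was at 0 in every library of a group. The part of these cells in the result was not tested.

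Over the time course Serping1 rose and both fragment receptors fell. Mutant nerves held 163, 269 and 269 CPM of Serping1 at 3 days, 665, 732 and 627 CPM at 7 days and 856, 771 and 1347 CPM at 14 days post injury. Wild type nerves held 173, 256 and 209 CPM at 3 days, 532, 539 and 685 CPM at 7 days and 998, 739 and 1063 CPM at 14 days. In each genotype the days did not overlap. Serping1 was higher at 7 than at 3 days in Mutant nerves (log2 fold change 1.53, SE 0.249, edgeR adjusted p = 0.000338) and in wild type nerves (log2 fold change 1.46, SE 0.249, adjusted p = 0.000361). It was higher at 14 than at 3 days too, by 2.08 (SE 0.254, adjusted p = 1.49e-05) in Mutant and 2.13 (SE 0.254, adjusted p = 9.39e-06) in wild type nerves on the log2 scale. Between 7 and 14 days the log2 fold changes were 0.55 (SE 0.245, adjusted p = 0.123) in Mutant and 0.67 (SE 0.245, adjusted p = 0.0887) in wild type nerves. Without the muscle-rich libraries, a setting chosen after seeing the data, the Mutant value was 0.98. That fit left only Mutant replicate 3 at 14 days, the library with 1347 CPM, so only the size is given.

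C5ar1 took the opposite course. Mutant nerves held 91.02, 55.5 and 44.2 CPM at 3 days, 12.1, 26.03 and 12.4 CPM at 7 days and 14.6, 9.13 and 16.4 CPM at 14 days. Wild type nerves held 53.6, 65.2 and 55.5 CPM at 3 days, 12.7, 27.6 and 26.99 CPM at 7 days and 9.91, 13.1 and 7.56 CPM at 14 days. Day 3 lay above both later days without overlap in either genotype, while days 7 and 14 overlapped. The log2 fold change of 7 against 3 days was -1.91 (SE 0.37, adjusted p = 0.0012) in Mutant and -1.37 (SE 0.364, adjusted p = 0.00781) in wild type nerves, and that of 14 against 3 days was -2.24 (SE 0.375, adjusted p = 0.000236) in Mutant and -2.51 (SE 0.382, adjusted p = 7.65e-05) in wild type nerves. C3ar1 averaged 114 ± 53.5 CPM at 3 days, 48.2 ± 28.4 CPM at 7 days and 33.6 ± 2.82 CPM at 14 days in Mutant nerves, and 103 ± 15.5, 49.9 ± 11.9 and 31.3 ± 5.12 CPM on the same days in wild type nerves (SD, n = 3 each). Its log2 fold change of 7 against 3 days was -1.24 (SE 0.353, adjusted p = 0.0137) in Mutant and -1.04 (SE 0.352, adjusted p = 0.0291) in wild type nerves, and that of 14 against 3 days was -1.76 (SE 0.359, adjusted p = 0.00108) in Mutant and -1.71 (SE 0.359, adjusted p = 0.000996) in wild type nerves. Mutant replicate 2 at 7 days, at 80.9 CPM of C3ar1, lay within the Mutant range of day 3. The 7-day calls of C3ar1 were lost without any of 3 Mutant libraries (3 days replicate 1, 7 days replicates 1 and 3) in Mutant nerves and without any of 4 wild type libraries (replicates 1 and 2 of either day) in wild type nerves. Without the muscle-rich libraries, a setting chosen after seeing the data, the 14-day difference of C3ar1 was -1.71 in Mutant and -1.47 in wild type nerves. That fit left only Mutant replicate 3 and wild type replicate 1 at 14 days, so only the sizes are given.

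**Figure D3:**
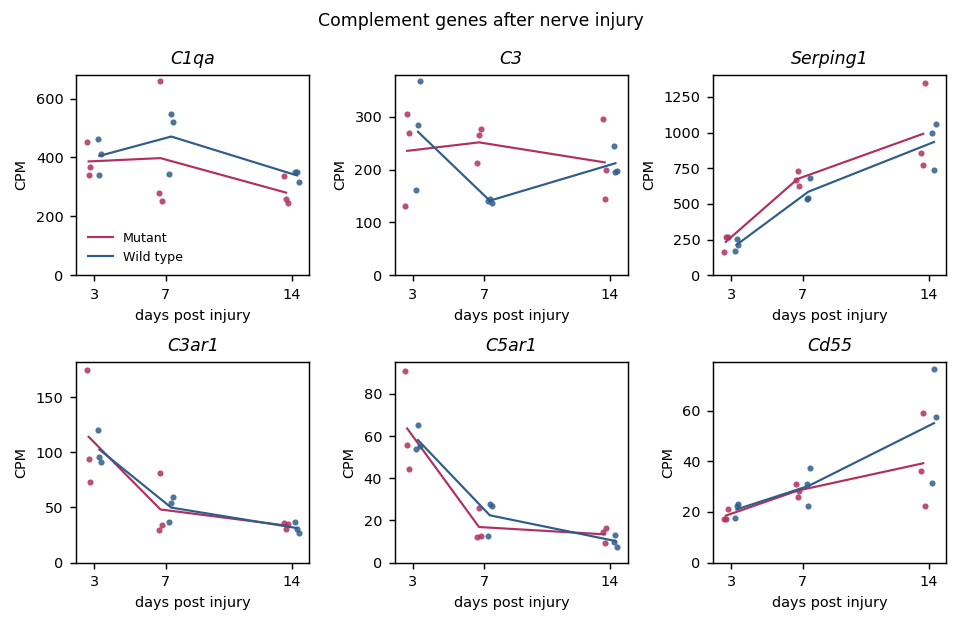
CPM of C1qa, C3, Serping1, C3ar1, C5ar1 and Cd55 in Mutant and wild type nerves 3, 7 and 14 days post injury, with 1 dot per library and lines through the group means. Serping1 climbs and both fragment receptors drop in each genotype, while C1qa stays above 245 CPM throughout.

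The chains of C1q passed in no comparison of days. C1qa averaged 386 ± 58.3 CPM at 3 days, 398 ± 228 CPM at 7 days and 281 ± 49.2 CPM at 14 days in Mutant nerves, and 405 ± 61.8, 471 ± 111 and 339 ± 19.9 CPM on the same days in wild type nerves (SD, n = 3 each). The lowest adjusted p of a chain was 0.109, for C1qb at 14 against 3 days in Mutant nerves (log2 fold change -0.63, SE 0.31, adjusted p = 0.109). Those days did not overlap in Mutant nerves for any chain. The Mutant mean at 7 days was carried by replicate 2, at 661 CPM of C1qa, against 279 and 254 CPM in the other 2. Without that library C1qb was called lower in Mutant nerves at 7 against 3 days (-0.68, adjusted p = 0.0268) and at 14 against 3 days (-0.63, adjusted p = 0.0137), and so was C1qc (-0.59, adjusted p = 0.0481; -0.49, adjusted p = 0.0454). 

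C3 had 132, 306 and 269 CPM at 3 days, 212, 266 and 276 CPM at 7 days and 297, 145 and 199 CPM at 14 days in Mutant nerves, with overlap between all days (log2 fold change 0.10, SE 0.318, edgeR adjusted p = 0.845 for 7 against 3 days). Wild type nerves had 162, 285 and 368 CPM at 3 days, 141, 145 and 137 CPM at 7 days and 245, 195 and 197 CPM at 14 days, and there C3 was lower at 7 than at 3 days without overlap (log2 fold change -0.94, SE 0.321, edgeR adjusted p = 0.0294). The difference between these courses was tested and not called (log2 fold change 1.04, SE 0.451, adjusted p = 0.755). The wild type call was lost without any of 5 wild type libraries, all those of 3 and 7 days but replicate 1 at 3 days, with values from -0.96 to -0.66. C4b averaged 179.9 ± 47.1, 239.5 ± 68.2 and 226 ± 71.6 CPM at 3, 7 and 14 days in Mutant and 195 ± 61.6, 157 ± 29.98 and 218 ± 30.5 CPM in wild type nerves (SD, n = 3 each), and passed between no days.

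Cd55 was higher at 14 than at 3 days. Mutant nerves held 17.2, 17.2 and 21.2 CPM at 3 days, 31.2, 25.7 and 28.2 CPM at 7 days and 36.1, 59.1 and 22.5 CPM at 14 days. Wild type nerves held 17.5, 22.3 and 23.1 CPM at 3 days, 31.02, 22.2 and 37.3 CPM at 7 days and 31.3, 76.3 and 57.6 CPM at 14 days. Day 14 lay above day 3 without overlap in both genotypes (log2 fold change 1.08, SE 0.325, edgeR adjusted p = 0.0132 in Mutant nerves; log2 fold change 1.39, SE 0.326, adjusted p = 0.00221 in wild type nerves). In Mutant nerves day 7 lay above day 3 as well (log2 fold change 0.62, SE 0.323, adjusted p = 0.154), a difference called when those groups were fitted alone (0.65, adjusted p = 0.00394) and without the muscle-rich libraries (0.63, adjusted p = 0.00637). Within day 14 the order of Cd55 was that of the muscle markers in each genotype. In Mutant replicates 1, 2 and 3 the 8-gene sums were 20100, 123000 and 4820 CPM, and the Cd55 levels 36.1, 59.1 and 22.5 CPM. The sums were 8220, 96100 and 69000 CPM in wild type replicates 1, 2 and 3, whose Cd55 levels were 31.3, 76.3 and 57.6 CPM. At 3 days the sums ran from 4.28 to 240 CPM in Mutant and from 239 to 1700 CPM in wild type nerves. Without the muscle-rich libraries Cd55 stood at 0.29 for 14 against 3 days in Mutant nerves and at 0.59 in wild type nerves. That fit left 1 library of each at 14 days, so only the sizes are given. Without Mutant replicate 2 at 14 days alone, the Mutant value was 0.66 (adjusted p = 0.0956). The order within day 14 rests on 3 libraries of each genotype, and the part of muscle in the Cd55 levels was not tested.

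**Figure D4:**
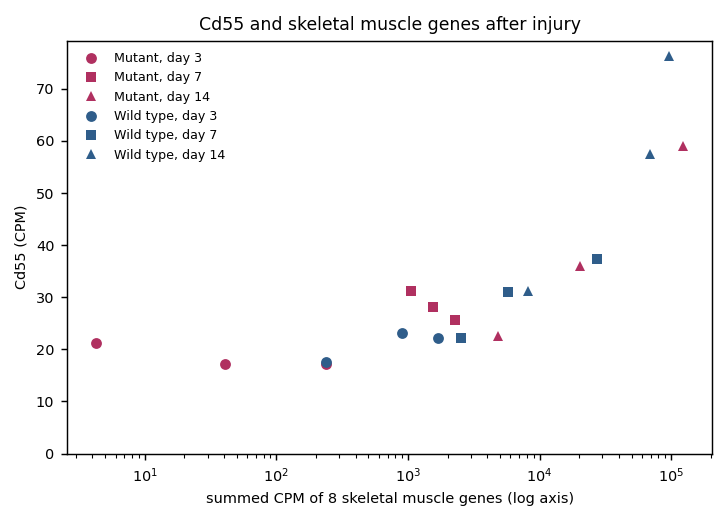
Cd55 in CPM against the summed CPM of 8 skeletal muscle genes (log axis) in the 18 libraries of the time course, with colour for genotype and shape for day. The 3 libraries above 57 CPM of Cd55 are the 3 with muscle sums of 69000 CPM or more.

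In Mutant nerves 3 of 9 members were called at 7 against 3 days (background 33.4%), 0 at 14 against 7 days (background 17.7%; 1 at an unadjusted p under 0.05; 0 by DESeq2) and 4 at 14 against 3 days (background 46.5%). In wild type nerves the counts were 4 (background 39.1%), 0 (background 7.41%; 3 at an unadjusted p under 0.05; 2 by DESeq2, Serping1 and C5ar1) and 4 (background 57.1%). These shares lie near those of all genes, and the comparisons share their libraries. The wild type count of 0 became 1 to 3 without wild type replicate 1 at 7 or at 14 days or without Mutant replicate 2 or 3 at 14 days. 

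Of 34 other complement genes tested, 15 rose and 4 fell in Mutant nerves at 7 against 3 days and 14 rose and 8 fell at 14 against 3 days, and the wild type counts were 14 and 4, then 13 and 7. At 14 against 3 days C1s1, a protease held in check by Serping1, rose by 2.22 (SE 0.208, adjusted p = 1.37e-06) in Mutant and 2.37 (SE 0.209, adjusted p = 7.24e-07) in wild type nerves. Next by p in Mutant nerves were C2, at 2.22 (SE 0.251, adjusted p = 7.65e-06), and Vtn, vitronectin, at 2.00 (SE 0.23, adjusted p = 8.7e-06). In wild type nerves Colec11, a collectin of the lectin pathway, rose by 3.05 (SE 0.315, adjusted p = 2.66e-06). Itgam, a chain of complement receptor 3, had log2 fold changes of -2.11 (SE 0.359, adjusted p = 0.000266) in Mutant and -2.43 (SE 0.366, adjusted p = 7.03e-05) in wild type nerves, and both were calls of lower. Its partner chain Itgb2 was lower too, at -1.98 (SE 0.348, adjusted p = 0.00035) in Mutant and -2.17 (SE 0.351, adjusted p = 0.000125) in wild type nerves. Properdin, Cfp, which stabilises the alternative pathway, stood at -1.74 (SE 0.324, adjusted p = 0.000553) in Mutant and -1.43 (SE 0.321, adjusted p = 0.00164) in wild type nerves. 

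Of 15 macrophage markers 0 rose and 7 fell in Mutant and 1 rose and 7 fell in wild type nerves at 14 against 3 days. Their summed level ran from 3220 to 7060 CPM at 3 days, 1770 to 4030 CPM at 7 days and 2370 to 2900 CPM at 14 days in Mutant nerves, and from 3860 to 4830, 3890 to 4240 and 2820 to 3310 CPM on these days in wild type nerves. Of 10 fibroblast markers 7 rose in Mutant and 7 in wild type nerves. Their summed level ran from 6090 to 7060 CPM at 3 days, 16000 to 17500 CPM at 7 days and 13200 to 22800 CPM at 14 days in Mutant nerves, and from 4790 to 6740, 13700 to 20500 and 13700 to 17800 CPM on these days in wild type nerves. No marker of either list was at 0 in every library of a group, and their part in the course of the members was not tested.

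Mutant and wild type nerves were not told apart by any member. edgeR called 0 of 9 on day 3, 0 on day 7 and 0 on day 14, against a background of 0%, 0% and 8.29% of genes, and DESeq2 called 0 members on each day, with 0 genes on day 3 and 241 on day 7. Without adjustment p was under 0.05 for 299 genes on day 3 and 2094 on day 7. Of the members 0, 1 and 0 did so on days 3, 7 and 14. The 1 was C3 on day 7, which stood at 252 ± 34.2 CPM in Mutant and 141 ± 3.79 CPM in wild type nerves (SD, n = 3 each) without overlap (log2 fold change 0.83, SE 0.32, edgeR adjusted p = 0.315). C4b did not overlap on that day either, at 239.5 ± 68.2 CPM in Mutant and 157 ± 29.98 CPM in wild type nerves (log2 fold change 0.61, SE 0.29, edgeR adjusted p = 0.381). The change of the difference between day 3 and a later day was called for 0 members on day 7 (background 0%; 1 at an unadjusted p under 0.05, C3; 1020 genes did, and DESeq2 called 31 genes) and 0 on day 14 (background 0.0568%; 0 at an unadjusted p under 0.05), and for 0 by DESeq2 on each. On day 14 the log2 fold changes ran from -0.49 (Cd55) to 0.40 (C5ar1), with SE between 0.244 and 0.372, and Cd55 was called lower in Mutant nerves without Mutant replicate 2 at 14 days (-0.92, adjusted p = 0.0388). Of the other complement genes 3 fell in Mutant nerves on day 14. All 3 calls were lost when the day 14 groups were fitted alone, where 0 of 14883 genes passed. They were Cfd, the adipocyte protease factor D, at -1.58 (SE 0.423, adjusted p = 0.0347), with 1480 CPM in Mutant and 4420 CPM in wild type nerves, the regulator Cr1l at -0.46 (SE 0.0977, adjusted p = 0.0144), and Cd59a, which blocks membrane attack, at -0.71 (SE 0.196, adjusted p = 0.038). Summed adipocyte markers ran from 1770 to 5100 CPM in Mutant and from 6740 to 7580 CPM in wild type nerves on that day, and their part was not tested.

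The tables that set libraries labelled Mitf against Cre-labelled libraries gave no called member either. At P21 the log2 fold changes of libraries labelled Mitf over DhhCre ran from -0.20 (C4b) to 0.11 (C1qc). C1qb had 97.3, 89.1, 90.9, 86.5 and 86.9 CPM in libraries labelled Mitf, against 94.9, 92.7, 79.03, 82.03 and 89.4 CPM in DhhCre libraries (log2 fold change 0.04, SE 0.0646, edgeR adjusted p = 1). Their SE ran from 0.0646 to 0.124 for the C1q chains, C3ar1, Cd55 and Serping1, while C3 was loose, with 30.3 to 61.9 CPM in Mitf and 13.2 to 81.8 CPM in DhhCre libraries (SE 0.481). At P12 the members' log2 fold changes of libraries labelled Mitf over Egr2Cre ran from 0.04 to 0.53. Their median was 0.33, against 0.002 over all genes tested. Members share libraries and the chains of C1q follow each other, so their common direction is not made of independent results. The groups overlapped except for C5ar1 and Cd55, and the share of all genes without overlap was not computed. C5ar1 had 7.39, 6.94 and 8.84 CPM in libraries labelled Mitf, against 4.66, 6.55 and 6.65 CPM in Egr2Cre libraries (log2 fold change 0.37, SE 0.189, edgeR adjusted p = 1). C1qa averaged 87.4 ± 19.8 CPM in Mitf and 65.3 ± 15.9 CPM in Egr2Cre libraries (SD, n = 3 each; log2 fold change 0.42, SE 0.214, edgeR adjusted p = 1). edgeR and DESeq2 called 0 of 9 in each table, 0 members reached an unadjusted p under 0.05, and the background was 0.0143% of genes at P21 and 0.0139% at P12.

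In the table of Egr2Cre Mitf and Mitf libraries, the members' log2 fold changes of Egr2Cre Mitf over Mitf ran from -0.19 to 0.62. Their median was 0.41, against -0.005 over all genes tested, and members that share libraries and follow each other are not independent. C3ar1 had 48.2, 42.3 and 41.8 CPM in Egr2Cre Mitf libraries, against 32.95, 22.6 and 30.6 CPM in libraries labelled Mitf, without overlap (log2 fold change 0.62, SE 0.152, edgeR adjusted p = 0.846). C4b had 136, 204 and 145 CPM in Egr2Cre Mitf libraries, against 101, 114 and 109 CPM in libraries labelled Mitf (log2 fold change 0.58, SE 0.168, edgeR adjusted p = 0.846). C1qc had 199.7, 178 and 178 CPM in Egr2Cre Mitf libraries, against 158, 119.8 and 138 CPM in libraries labelled Mitf (log2 fold change 0.42, SE 0.138, edgeR adjusted p = 0.846). For C4b and C1qc too the groups did not overlap, and the share of all genes without overlap was not computed. In this table edgeR called 0 of 9 members and 0 of 15482 genes (0%), and DESeq2 called 0 members and 7 genes. C3ar1, C4b and C1qc had an unadjusted p under 0.05 by edgeR, out of 671 genes that did. Serping1 reached its highest group means here, with 1412, 1349 and 1071 CPM in Egr2Cre Mitf and 1615, 995 and 953 CPM in Mitf libraries (log2 fold change 0.11, SE 0.246, edgeR adjusted p = 0.933). Summed macrophage markers ran from 2660 to 2880 CPM in Egr2Cre Mitf and from 1740 to 2720 CPM in Mitf libraries. Summed muscle markers ran from 15100 to 24100 CPM in Egr2Cre Mitf and from 13200 to 57900 CPM in Mitf libraries, and the part of either was not tested.

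The largest differences of C1q and C3ar1 in the 24 comparisons came with the Ndrg1 label, whose comparisons with controls share the same 6 control libraries. C1qa had 307, 328, 195, 328 and 330 CPM in Ndrg1 libraries, against a lowest of 65.7, a median of 72.5 and a highest of 88.4 CPM in controls, a 3.99-fold difference (log2 fold change 2.00, SE 0.116, edgeR adjusted p = 5.15e-13). C1qb had 275, 278, 173, 286 and 269 CPM in Ndrg1 libraries, against a lowest of 61.4, a median of 64.8 and a highest of 80.5 CPM in controls (log2 fold change 1.92, SE 0.116, edgeR adjusted p = 1.02e-12). C1qc had 265, 283, 163, 279 and 278 CPM in Ndrg1 libraries, against a lowest of 62.7, a median of 64.9 and a highest of 74.7 CPM in controls (log2 fold change 1.92, SE 0.12, edgeR adjusted p = 1.97e-12). Every Ndrg1 library lay above every control for all chains, although replicate 3 stood well under the other 4. C3ar1 had 66.9, 66.7, 76.9, 66.4 and 55.03 CPM in Ndrg1 libraries, against a lowest of 10.8, a median of 11.9 and a highest of 15.2 CPM in controls, and rose most of all members, 5.31-fold (log2 fold change 2.41, SE 0.099, edgeR adjusted p = 1.32e-15). Replicate 3, the lowest for C1q, was the highest for C3ar1. C5ar1 had 8.08, 16.3, 7.54, 7.75 and 9.43 CPM in Ndrg1 libraries, against a lowest of 5.55, a median of 6.29 and a highest of 7.87 CPM in controls (log2 fold change 0.57, SE 0.203, edgeR adjusted p = 0.0177), with overlap, and lost the call without Ndrg1 replicate 2 (0.31, adjusted p = 0.151). C3 had 135, 119, 135, 159 and 149 CPM in Ndrg1 libraries, against a lowest of 46.6, a median of 71.2 and a highest of 121 CPM in controls (log2 fold change 0.90, SE 0.22, edgeR adjusted p = 0.00141), with 1 control inside the Ndrg1 range. C4b fell slightly, with 191, 142, 144, 185 and 191 CPM in Ndrg1 libraries, against a lowest of 169, a median of 228 and a highest of 279 CPM in controls (log2 fold change -0.40, SE 0.16, edgeR adjusted p = 0.0359), and lost the call without any of 5 single libraries. Cd55 fell to 55.1, 49.8, 62.1, 52.3 and 36.5 CPM in Ndrg1 libraries, against a lowest of 136, a median of 144 and a highest of 163 CPM in controls, without overlap (log2 fold change -1.51, SE 0.0958, edgeR adjusted p = 2.52e-12). Serping1 averaged 248 ± 19.95 CPM in Ndrg1 libraries (SD, n = 5) and 223 ± 31.3 CPM in controls (SD, n = 6), and did not pass (log2 fold change 0.15, SE 0.0887, edgeR adjusted p = 0.144), but was called higher without control replicate 1 (0.22, adjusted p = 0.0252).

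Mitf-Ndrg1 libraries also held more C1q and C3ar1 and less Cd55 than libraries labelled Mitf and controls, and more Serping1 than Ndrg1 libraries. Their C1qa averaged 305 ± 21.5 CPM, against 71.7 ± 8.17 CPM in libraries labelled Mitf and 74.5 ± 8.98 CPM in controls (log2 fold change 2.09, SE 0.117, edgeR adjusted p = 2.53e-13 against Mitf; log2 fold change 2.03, SE 0.116, adjusted p = 4e-13 against control). C3ar1 averaged 62.5 ± 5.71 CPM in Mitf-Ndrg1, 12.8 ± 1.48 CPM in Mitf and 12.5 ± 1.52 CPM in control libraries (log2 fold change 2.29, SE 0.0985, edgeR adjusted p = 2.62e-15 against Mitf). Cd55 averaged 58.9 ± 2.796 CPM in Mitf-Ndrg1, 129.9 ± 9.796 CPM in Mitf and 145 ± 10.3 CPM in control libraries (log2 fold change -1.14, SE 0.0945, edgeR adjusted p = 3.43e-10 against Mitf; SD, n = 5, 6 and 6 throughout). C3 had 151, 164, 218, 213 and 171 CPM in Mitf-Ndrg1 libraries, against a lowest of 36.4, a median of 54.5 and a highest of 86.04 CPM in libraries labelled Mitf, without overlap (log2 fold change 1.72, SE 0.223, edgeR adjusted p = 1.31e-06). Serping1 had 351, 372, 376, 359.6 and 359 CPM in Mitf-Ndrg1 libraries, against 264, 256, 216, 263 and 241 CPM in Ndrg1 libraries. The 5 Mitf-Ndrg1 libraries lay in a narrow band above all others of the table, and Serping1 was the 1 of 9 members called between Mitf-Ndrg1 and Ndrg1 (background 1.47%; log2 fold change 0.55, SE 0.093, edgeR adjusted p = 0.00499), also with each of the 22 libraries left out in turn (adjusted p of at most 0.024). Against libraries labelled Mitf, at a lowest of 189.9, a median of 227 and a highest of 243 CPM, Serping1 rose by 0.72 (SE 0.0886, edgeR adjusted p = 2.13e-07). C5ar1 was called against libraries labelled Mitf at 0.60 (SE 0.202, adjusted p = 0.0134), and not without Mitf-Ndrg1 replicate 2 (0.48, adjusted p = 0.0552). The other 8 members had log2 fold changes between -0.09 (C3ar1) and 0.40 (C3) for Mitf-Ndrg1 over Ndrg1, with SE from 0.097 to 0.23. In the interaction, which asks whether the Ndrg1 difference depends on the Mitf label, Serping1 was again the 1 member called (background 0.39%; log2 fold change 0.57, SE 0.126, edgeR adjusted p = 0.0419). That call was lost with 15 of the 22 single libraries left out (values from 0.50 to 0.61) and without the muscle-rich libraries (0.60, adjusted p = 0.0658), a setting chosen after seeing the data. Without adjustment the edgeR p of the interaction was under 0.05 for 4 members, out of 2213 genes that did. The largest log2 fold change of a member in it was 0.82, above that of Serping1, and was not called. Libraries labelled Mitf were not told apart from controls: edgeR and DESeq2 called 0 of 9 members, 0 reached an unadjusted p under 0.05, the log2 fold changes ran from -0.43 (C3) to 0.07 (C5ar1), and the background was 0.00629% of genes.

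**Figure D5:**
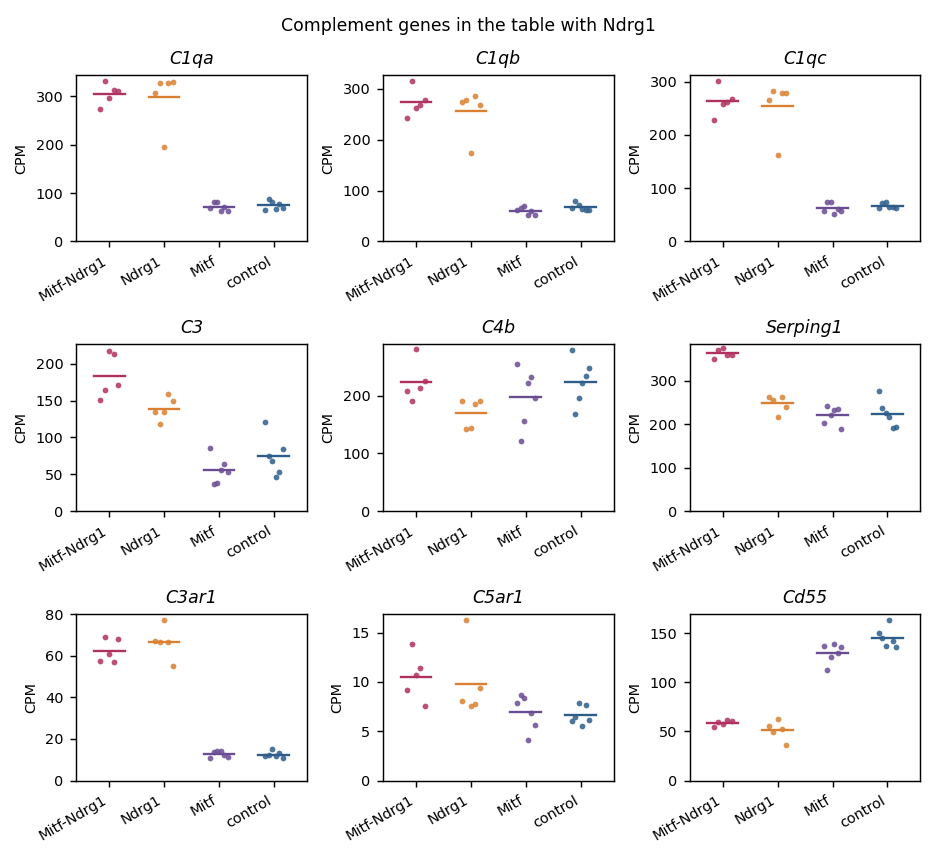
CPM of each complement gene in Mitf-Ndrg1, Ndrg1, Mitf and control libraries, with 1 dot per library and a bar at the group mean. The C1q chains and C3ar1 form 2 separate bands with and without the Ndrg1 label, Cd55 forms them in reverse, and Serping1 lies highest in Mitf-Ndrg1.

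In counts, 8 of 9 members were called in Ndrg1 against control (6 higher and 2 lower; background 60.5%), 8 in Mitf-Ndrg1 against control (7 higher and 1 lower; background 59.1%) and 8 in Mitf-Ndrg1 against Mitf (7 higher and 1 lower; background 57.6%), where most genes were called as well. The members' median log2 fold change was 0.90 for Ndrg1 against control, against 0.02 over all genes. Of 32 other complement genes tested, 14 rose and 4 fell in Ndrg1 against control. Itgax, a chain of complement receptor 4, rose, at 6.21 (SE 0.296, adjusted p = 1.43e-14), with 14.9 CPM in Ndrg1 libraries and 0.196 CPM in controls, a fitted value that leans on the prior count because controls held next to none. Itgam rose at 2.36 (SE 0.116, adjusted p = 2.74e-14) and Itgb2 at 1.92 (SE 0.08, adjusted p = 1.67e-15). Masp1, a protease of the lectin pathway, fell, at -2.55 (SE 0.214, adjusted p = 3.22e-10), as did the regulators Vtn, vitronectin, at -0.58 (SE 0.144, adjusted p = 0.0012) and Cr1l at -0.28 (SE 0.0721, adjusted p = 0.00176). Between Mitf-Ndrg1 and Ndrg1, 2 of the 32 rose, both fluid-phase regulators of the terminal pathway: Clu, clusterin, at 1.04 (SE 0.122, adjusted p = 0.00018) and Vtn at 0.72 (SE 0.149, adjusted p = 0.0196). Clu was also called in the interaction, at 1.31 (SE 0.165, adjusted p = 0.000579). Of 15 macrophage markers 12 rose and 2 fell in Ndrg1 against control, and 0 rose and 0 fell in Mitf-Ndrg1 against Ndrg1. Their summed level ran from 3620 to 4880 CPM in Mitf-Ndrg1, 3420 to 4520 CPM in Ndrg1, 533 to 655 CPM in Mitf and 522 to 662 CPM in control libraries, with no marker at 0 in every library of a group. Of 10 myelinating Schwann cell markers 10 fell in Ndrg1 against control. The part of these lists in the members' levels was not tested.

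Over all 82 libraries, with each table centred on its own mean, the members fell into a few patterns. These correlations describe levels whose points share tables, groups and scaling. The chains of C1q followed each other most closely (r from 0.979 to 0.989), and the third most alike gene of each, out of 11197 genes compared, was Tyrobp, a signalling adaptor of myeloid cells (0.948 to 0.957). C3ar1 was most like Lcp1, an actin bundler of leukocytes (0.967), Laptm5 (0.962) and Cd68 (0.958); Laptm5 and Cd68 are on the macrophage list. C5ar1 was most like Csf1r, the receptor of the macrophage growth factor (0.826), followed by Cndp2 and Eps8. Serping1 was most like another complement gene, C1s1 (0.942), then Cldn1 (0.902), a tight junction gene on the perineurial list, and Ecm2 (0.898). The likeness of C3 to any gene was looser, with Isyna1 (0.679), Osmr (0.673) and Cebpa (0.66) first, and C4b was most like C3 itself (0.609), then C1ra (0.574) and Nbl1 (0.547). Cd55 was most like Dnaja4 (0.868), Acadsb (0.863) and Pex19 (0.848). Between members, C3ar1 and Cd55 ran most strongly against each other (-0.763). Their value shrank to -0.031 when each group was centred on its own mean, whereas that of C1qa and C1qc was 0.955 after the same step. With groups so centred, C5ar1 stood at 0.691 with Csf1r, 0.32 with Cndp2 and 0.245 with Eps8. Serping1 stood at 0.785 with C1s1, 0.503 with Cldn1 and 0.687 with Ecm2, and C4b at 0.71 with C3.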

How the data were processed

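RNA of 82 sciatic nerve samples was measured by RNA sequencing of poly(A)-selected, stranded libraries, per the labels' protocols. The authors deposited 8 tables of estimated counts per gene symbol; the submitters' processing notes name kallisto and mm10, with versions not given in the sources used here, and how transcripts were summed to genes is not stated. Between 34.8% and 89.0% of a library's values were whole numbers. Every column of per-sample values matched a sample, and 0 were left unused. Estimated counts were rounded to whole numbers and tested within each table with edgeR 4.0.16 (R 4.3.3): filterByExpr with a minimum count of 10, TMM scaling, robust quasi-likelihood fits, Benjamini-Hochberg adjustment over all genes tested and a threshold of 0.05. Fits of the time course and of the Ndrg1 table held all groups of the table, and the difference between P12 and P4 was fitted over both Fig4 tables. The SE of a log2 fold change is its size divided by the root of F. CPM are TMM-scaled within a table, so levels from different tables were scaled separately.

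The members, the marker lists and the list of 48 other complement genes were chosen with earlier results of these data known. All members are named; of the other complement genes at most 3 per direction and comparison are, those with the smallest p past the test (1 result under this rule is not reported here); and for each member the 3 genes of highest Pearson r of log2(CPM + 2) are. Alternatives were DESeq2 1.42.0, RLE scaling, a fit of all genes with a count, a block for the replicate number, the compared groups alone and each library left out in turn; leaving out libraries with 10000 CPM or more of muscle markers was added after seeing the data. Same-numbered samples deviated together (every correlation above 0.1) in the table of Mitf and DhhCre at P21 (0.163 to 0.399) and in that of Egr2Cre Mitf and Mitf (0.209 to 0.485), and in no other. The closest pair of replicates differed by a chi-square of 9.61 per degree of freedom, so no library was counted as a duplicate. On simulated counts with the means of the real genes, the steps recovered 46% of 2-fold and 69% of 4-fold changes for Fig4 at P12 (14338 genes), 30% and 70% for injury (15245 genes), and 77% and 95% for Ndrg1 against control (15910 genes), all with the right sign. Promoters are from RefSeq (GRCm38.p6) and positions from GENCODE vM21.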

Additional observations from a re-analysis of the deposited data

Results flagged for a closer look

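In groups of 4 to 10 libraries, the highest or lowest value of a member was checked for a gap to the rest above Dixon's 95% limit. Of 72 such checks, each of 1 member in 1 group, 8 met it, where chance gives about 1 in 20 for independent checks. These checks were not independent, because members share libraries and the chains of C1q follow each other. Ndrg1 replicate 3 stood apart as the lowest of 5 for each chain of C1q, with 195 CPM of C1qa (next 307 CPM), 173 CPM of C1qb (next 269 CPM) and 163 CPM of C1qc (next 265 CPM). Ndrg1 replicate 2 was the highest of 5 for C5ar1, at 16.3 CPM (next 9.43 CPM). Among the injured nerves labelled Mitf, replicate 1 was the lowest of 4 for C1qb, at 84.6 CPM (next 208 CPM), and for C5ar1, at 8.30 CPM (next 16.8 CPM). Among the uninjured nerves labelled Mitf, replicate 4 was the lowest of 4 for C3, at 253 CPM (next 399.7 CPM). Mitf replicate 1 at P21 was the highest of 5 for C3ar1, at 15.4 CPM (next 13.2 CPM).

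The Serping1 difference between nerves with and without the Ndrg1 label depended on the Mitf label by the test of that difference, at 0.57 on the log2 scale (edgeR adjusted p = 0.0419), with the losses of that call given above.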

How the results depend on the processing

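Counts of called members under other settings moved by over 1.5 times in a few cases. With the replicate block 4 members passed for Fig4 at P12 (7 without it). Correlations of same-numbered samples were low there (0.021 to 0.104), yet all 6 correlated best with their own number, and whether they are paired is not known. For injury the block kept Cd55, lost C3 (-1.03, adjusted p = 0.0604) and C3ar1 (1.31, adjusted p = 0.0633) and gained C4b (-0.61, adjusted p = 0.0408), with correlations of 0 to 0.209 and 6 of 8 libraries best with their own number. The block changed no member call in the 2 tables where every correlation of same-numbered samples was above 0.1 (0 members in each). There 5 of 10 libraries correlated best with their own number at P21, and 5 of 6 in the table of Egr2Cre Mitf and Mitf. Whether those samples are paired is not stated either. DESeq2 gave 8 for injury (edgeR 3) and 2 for wild type 14 against 7 days (edgeR 0). Without the muscle-rich libraries the counts were 2 for wild type 7 against 3 days (from 4) and 0 for the Mitf by Ndrg1 interaction (from 1). Comparisons with 14 days are left out here, because that setting leaves 1 library of each genotype at 14 days. No such value exists for the table in which all libraries are muscle-rich. Nor does one for the Fig4 table at P12, the DhhCre table and the injury table, which hold no such library. The causes were not tested. With 1 library left out in turn the counts ran from 0 to 6 for Fig4 at P12, 1 to 7 for injury, 2 to 4 for wild type 7 against 3 days, 0 to 3 for wild type 14 against 7 days, 4 to 4 for wild type 14 against 3 days, 2 to 5 for Mutant 7 against 3 days, 3 to 6 for Mutant 14 against 3 days, 0 to 1 for Mutant against wild type on day 14, 6 to 8 for Ndrg1 against control, 8 to 8 for Mitf-Ndrg1 against control, 7 to 8 for Mitf-Ndrg1 against Mitf, 1 to 1 for Mitf-Ndrg1 against Ndrg1, 0 to 1 for the interaction and 0 to 0 for the others. Of the 51 member calls, 271 of 285 values under other settings kept direction and call and 14 lost the call; with 1 library left out 67 of 908 did, and 0 changed sign. Among differences that did not pass, 27 of 885 values turned sign and 13 became calls under other settings, as did 151 and 19 of 2548 with 1 library left out. RLE scaling moved 0 of 198 group levels beyond 1 SD and the median of all genes by at most 0.023 (log2). Counts over all genes differed by tool: edgeR and DESeq2 called 435 and 959 genes for Fig4 -/- at P12, 1 and 7 for Fig4 -/- at P4, 0 and 241 for Mutant against wild type on day 7, and 0 and 7 for Egr2Cre Mitf against Mitf. With 3 libraries a group, the simulated 2-fold changes recovered were few in some designs (7% for Fig4 at P4), so an uncalled member there is not shown to be unchanged.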
